A study of Mus musculus with 12 samples.

Results

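The cyclins that drive mitotic and meiotic divisions were followed in mouse testes with altered Sox3. The list held 10 genes, chosen by symbol as the A-, B-, D- and E-type cyclins. Of these, 8 had a transcript cluster that carries a single gene symbol in the platform annotation, out of 22180 such genes on the array. They were Ccna1, Ccna2, Ccnb2, Ccnb3, Ccnd1, Ccnd2, Ccnd3 and Ccne1, each with 1 cluster. Ccnb1 had no named cluster in the annotation used, and the cluster of Ccne2 is shared with Ints8, so neither was analysed here.

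Whole testes were profiled at 2 weeks of age, 1 Affymetrix whole-transcript array per testis sample, on a C57BL/6N background. The groups were Sox3-KO testes (KO, n = 3), Sox3-Sox2KI testes (KI, n = 3), 3 WT testes from KO litters (WT 4 to WT 6) and 3 WT testes from KI litters (WT 1 to WT 3). Both mutant lines were made with CRISPR/Cas9. The KO is labelled as a knockout of Sox3, an X-linked transcription factor gene known from spermatogonia, and the KI name places Sox2 at the Sox3 locus. No other allele or treatment is given in the labels, and the labels do not say how many founders each line had. Each mutant was set against all 6 WT testes, as in the stated design, and also against its own littermates. Values are log2 expression levels, so a difference of 1 is a doubling in signal.

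Cyclins switch on cyclin-dependent kinases (CDKs), and each type rises and is destroyed at its own point of the cell cycle. D-type cyclins pass growth signals to CDK4 and CDK6 in G1 phase, E-type cyclins act with CDK2 at the entry into S phase, A-type cyclins act from S phase on, and B-type cyclins act with CDK1 in mitosis. The testis adds meiotic uses. In male mice Ccna1 is needed to complete meiotic prophase, Ccnb3 is transcribed in early meiotic prophase, and the E-type cyclins act with CDK2 in spermatocytes. At 2 weeks the first wave of spermatogenesis has only recently reached meiosis.

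The promoters of 3 of these genes are shown because they hold the sequence words by which cell-cycle and spermatocyte genes are commonly read, and because the B-type cyclins had the largest decreases of the 8 in KO testes. Each runs 5′ to 3′ from 250 bases before to 50 bases after the annotated start, from RefSeq on GRCm38.p6, and all lie on the minus strand. They are Ccnb3 at chrX:7041570-7041869, Ccnb2 at chr9:70421505-70421804 and Ccna1 at chr3:55055006-55055305. Capitals mark matches, on either strand, to the MYB words TAACNG and CAACNG, to the CHR words TTTGAA and TTCGAA, to CCAAT, and to E2F words. The E2F words searched were TTCGCGC together with its variants, which read TTGGCGC in one case, TTCCCGC in another case, or else TTGCCGC.
Ccnb3: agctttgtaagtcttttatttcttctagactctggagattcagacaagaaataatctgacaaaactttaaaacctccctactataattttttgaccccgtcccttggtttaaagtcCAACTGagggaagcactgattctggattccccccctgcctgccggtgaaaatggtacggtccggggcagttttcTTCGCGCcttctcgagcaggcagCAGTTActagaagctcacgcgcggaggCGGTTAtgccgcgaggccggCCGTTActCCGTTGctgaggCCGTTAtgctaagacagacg
Ccnb2: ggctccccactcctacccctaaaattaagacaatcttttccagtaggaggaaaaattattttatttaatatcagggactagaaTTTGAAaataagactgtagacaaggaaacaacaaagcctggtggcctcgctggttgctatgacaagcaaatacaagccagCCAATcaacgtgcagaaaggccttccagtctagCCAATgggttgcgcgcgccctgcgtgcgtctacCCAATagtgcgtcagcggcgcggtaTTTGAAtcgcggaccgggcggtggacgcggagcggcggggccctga
Ccna1: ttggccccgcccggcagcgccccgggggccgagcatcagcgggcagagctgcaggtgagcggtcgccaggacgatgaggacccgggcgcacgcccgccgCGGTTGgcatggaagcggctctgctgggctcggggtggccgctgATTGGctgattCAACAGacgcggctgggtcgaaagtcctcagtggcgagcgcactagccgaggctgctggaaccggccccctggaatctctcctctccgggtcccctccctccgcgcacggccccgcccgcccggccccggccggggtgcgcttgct

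In Ccnb3 the capital stretches are 6 MYB words, at positions -134, -37, -10, 11, 19 and 31 from the start, and 1 E2F word, TTCGCGC at -60. All MYB words but the one at -134 read on the opposite strand. At least 6 such words were found in 0.0822% of the 32841 promoters of this length, and at least 1 in 49.7%. The MYB words were chosen for the search after this sequence and the values of Mybl1 had been seen, and the E2F words were shortened by a base after a search with longer ones. Ccnb2 held 2 TTTGAA words, at positions -167 and 5, and 3 CCAAT words, at -87, -54 and -21. At least that many were found in 2.54% of promoters for the CHR words and in 3.37% for CCAAT. Ccna1 held 2 MYB words and 1 CCAAT, counts reached by 17.2% of promoters for the MYB words and by 37.4% for CCAAT. At least 1 E2F word was found in 9.57% of promoters, and Ccnb2 and Ccna1 held none. No words of different kinds overlapped in these sequences. These matches are letters in a window and say nothing of binding.

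Sox3 itself was lower in KO testes, at 6.57 to 6.65, against a range of 7.21 to 7.36 in WT testes (log2 difference -0.68, limma adjusted p = 0.0161). KI 1, KI 2 and KI 3 were at 7.26, 6.75 and 6.95. The array labelled KI 1 therefore lay within the WT range. Array medians lay between 5.74 and 5.82. The 1105 olfactory receptor genes were taken as mostly silent, which was not tested for testis. Their median was 3.29 and their 95th percentile 5.33, and the latter was used here as a background limit. The Sox3 signal of the KO testes lay above that limit. Which stretch of the gene was removed, and where the probes lie in it, was not known here, so the signal does not check the deletion itself.

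One cyclin passed the test in KO testes. Ccnb3, a B-type cyclin of early meiotic prophase, fell 1.61-fold, while the other 7 measured members did not pass. That is 1 of 8 members, and over all 22180 genes 4.86% passed, with 2.34% falling and 2.52% rising (limma, adjusted p under 0.05). The median difference of the 8 members was -0.06, against 0.04 for all genes. Of the 8, 4 had an unadjusted p under 0.05 (Ccnb2, Ccnb3, Ccnd1 and Ccnd3), a share to be set beside 24.2% of all genes. In bulk tissue, fewer cells of a type and less RNA per cell cannot be told apart.

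**Figure D1:**
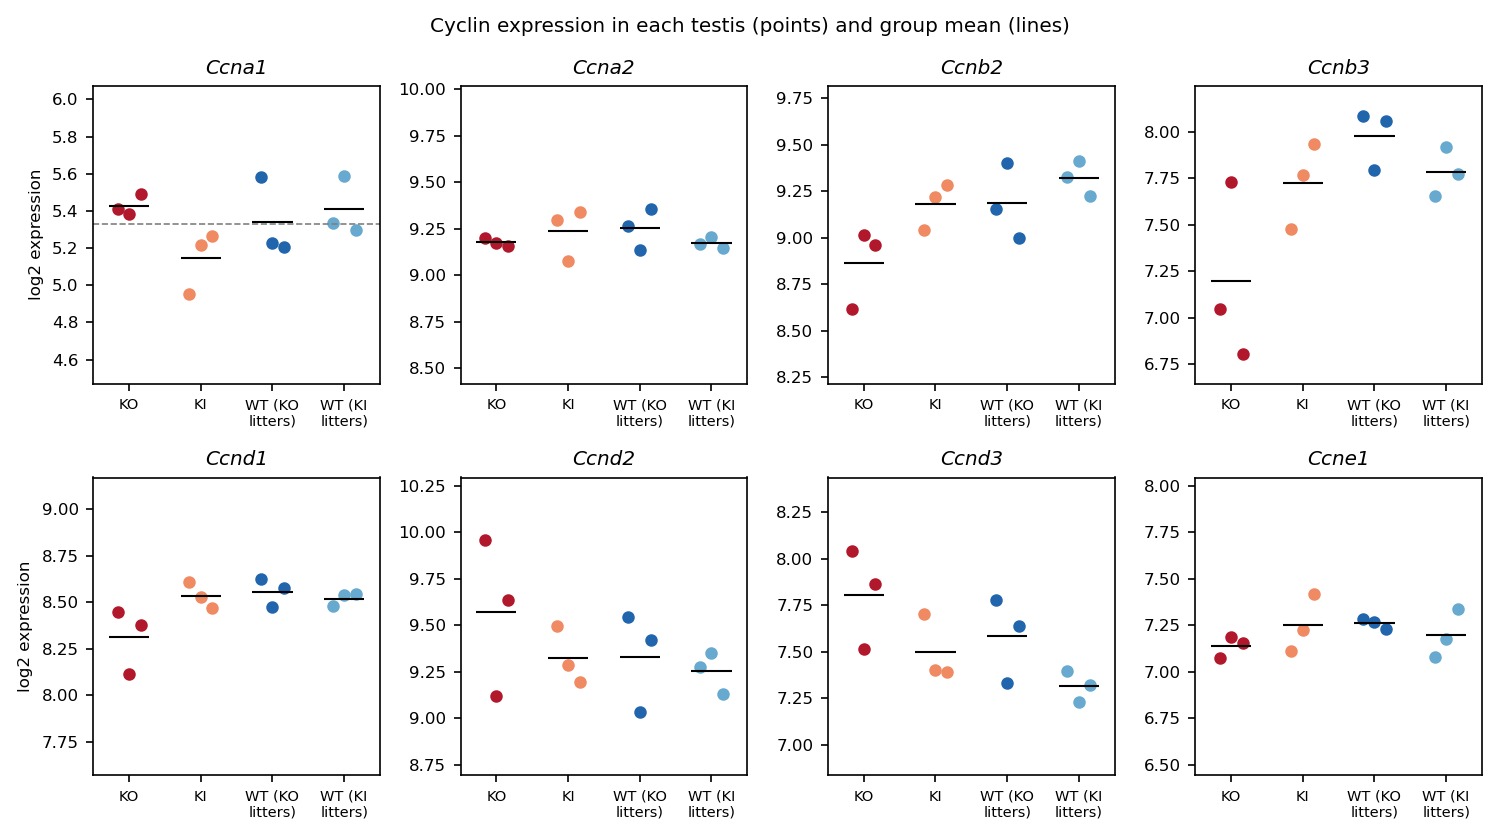
Log2 expression of the 8 measured cyclins (vertical axes, each spanning the same range of log2 units) in KO, KI, WT of KO litters and WT of KI litters, with 1 point per testis and a line at each group mean (n = 3 per group). Ccnb3 is low in 2 of 3 KO testes, and Ccna1 lies around the background limit of 5.33 (dashed line).

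Ccnb3 was at 7.05, 7.73 and 6.81 in KO 1, KO 2 and KO 3. In KI testes it was at 7.48, 7.77 and 7.93, and in WT testes it ran from 7.65 over a median of 7.86 to 8.09. KO 1 and KO 3 lay below every other testis, while KO 2 lay inside the WT range. The means were 7.20 ± 0.48 in KO testes (SD, n = 3), against 7.88 ± 0.17 in WT testes (SD, n = 6). The log2 difference was -0.69 (SE 0.18, 95% interval -1.07 to -0.30, limma adjusted p = 0.0448). The exact two-sided permutation p was 0.0238, where 84 splits allow 0.0119 at the smallest. Against the 3 KO littermates alone all 3 KO testes were lower, by -0.78, which did not pass (limma adjusted p = 0.16). In that comparison 7.13% of all genes were lower without overlap.

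The Ccnb3 call lay close to the threshold and depended on which arrays were used. With 1 array left out the difference ran from -0.95 (without KO 2) to -0.49 (without KO 3), always lower in KO. The limma adjusted p ran from 0.00533 to 0.203, and it stayed under 0.05 only when KO 2 was the array left out. Taking out any 1 WT or KI array gave 0.0509 to 0.0839, taking out KO 1 gave 0.162, and taking out KO 3 gave 0.203.

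Ccnb2, the other measured B-type cyclin and a partner of CDK1 in mitosis and meiosis, had values in the same direction that did not pass. It was at 8.62, 9.02 and 8.96 in KO testes and at 9.04, 9.22 and 9.29 in KI testes. In WT testes it ran from 8.998 over a median of 9.28 to 9.41. KO 1 and KO 3 lay below the WT range and KO 2 just inside it. The log2 difference between KO and WT was -0.39 (SE 0.11, 95% interval -0.63 to -0.14, limma adjusted p = 0.0633, exact permutation p = 0.0238). Without KO 2 the difference was -0.46 with a limma adjusted p of 0.041, and without WT 6 it was -0.44 with 0.0299. Ccnb2 passed in only these 2 of the 12 settings with 1 array left out. Over all 12 its difference ran from -0.46 to -0.26, with a limma adjusted p of 0.0299 to 0.236.

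The B-type cyclins differed in how they varied among WT testes. Ccnb3 was highest in WT 4 and WT 6, at 8.09 and 8.06, whereas Ccnb2 was lowest of all WT testes there, at 9.16 and 8.998. The same WT testes had the lowest means over 9 pachytene spermatocyte genes, at 7.36 and 7.23, against 7.93 to 8.41 in the other 4 WT testes. They also had the lowest WT means over 19 early meiotic prophase genes, at 8.83 and 8.85.

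**Figure D2:**
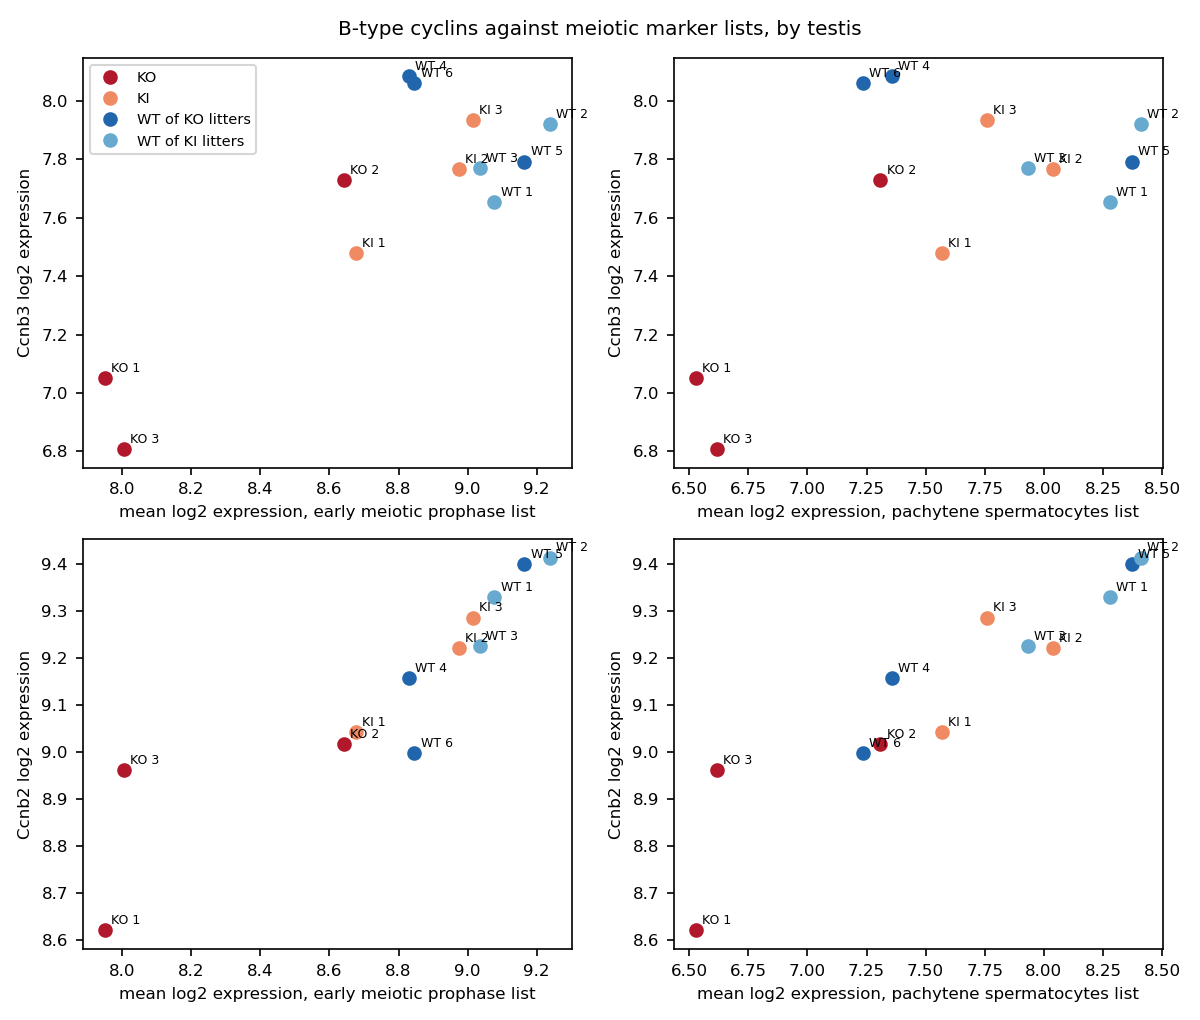
Log2 expression of Ccnb3 (top) and Ccnb2 (bottom) in each of 12 testes against the mean log2 expression of the early meiotic prophase list (left) and the pachytene spermatocytes list (right). KO 1 and KO 3 are low on every axis, and WT 4 and WT 6 are high for Ccnb3 but low for Ccnb2.

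Markers of meiotic germ cells were also lower in KO testes. The mean of the early meiotic list was 7.95 to 8.64 in KO, 8.68 to 9.01 in KI and 8.83 to 9.24 in WT testes. Of its 19 measured genes 16 fell in KO testes, none rose and 3 did not pass, with a median difference of -0.75. Over all genes 2.34% fell. Sycp1 and Sycp2, which encode parts of the synaptonemal complex, fell by 0.75 and 0.98 on the log2 scale (limma adjusted p = 0.0321 and 0.0317). For the pachytene list the means were 6.53 to 7.31 in KO, 7.57 to 8.04 in KI and 7.23 to 8.41 in WT testes, and 5 of 9 genes fell, among them Clgn, a chaperone gene of spermatocytes (-1.71, limma adjusted p = 0.0365). Against the KO littermates alone no gene of either list passed, though all were lower in KO (smallest limma adjusted p = 0.136 and 0.161). KO 2 was the highest of the KO testes in both lists, as it was for Ccnb3 and Ccnb2. The part of these markers in the cyclin values was not tested.

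The gene outside the list whose pattern was most like that of Ccnb3 was Dmc1, which encodes a meiotic strand exchange protein, with a Pearson correlation of 0.98 over the 12 arrays. Nptx2 and Ltv1 followed with 0.96 and 0.95. These are descriptions over arrays that include all genotypes. Dmc1 was at 8.54, 9.28 and 8.41 in KO 1, KO 2 and KO 3, against 9.32 to 9.57 in WT testes, with its highest values in WT 4 and WT 6, as for Ccnb3. It fell in KO testes by 0.73 on the log2 scale (limma adjusted p = 0.0328), while Nptx2 (-0.27) and Ltv1 (-0.22) did not pass.

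The A-type cyclins showed no call. Ccna2, the A-type cyclin of dividing cells, was at 9.20, 9.17 and 9.16 in KO testes, at 9.30, 9.08 and 9.34 in KI testes, and from 9.14 over 9.19 to 9.36 in WT testes. All 3 KO testes lay inside the WT range. The KO difference from WT was -0.04, with a 95% interval of -0.20 to 0.13 (limma adjusted p = 0.817). Ccna1, which acts late in meiotic prophase, was at 5.41, 5.39 and 5.49 in KO testes and at 4.96, 5.22 and 5.27 in KI testes, and from 5.21 over 5.32 to 5.59 in WT testes. It lay above the background limit of 5.33 on 6 of 12 arrays, so a change in its transcript could be hidden. The 3 KI testes lay below all KO testes (log2 difference -0.28), as 22.1% of all genes did not overlap between KI and KO in either direction. They also lay below all of their own littermates, where 6.07% of genes did so. None of these Ccna1 differences passed, with a limma adjusted p of 0.249 for KI against KO and 0.93 for KI against its littermates.

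Among the D-type cyclins, Ccnd1 was slightly low and Ccnd2 and Ccnd3 were uneven in KO testes, and none passed. Ccnd1, known in the testis from dividing spermatogonia, was at 8.45, 8.12 and 8.38 in KO testes and at 8.61, 8.53 and 8.47 in KI testes, and from 8.47 over 8.54 to 8.63 in WT testes. All 3 KO testes lay below all 6 WT testes, KO 1 by a small margin, as 4.59% of all genes did. The difference was -0.23 (95% interval -0.39 to -0.06, limma adjusted p = 0.1), and the exact permutation p of 0.0119 was the smallest that the splits allow. KO 2, which had WT-like Ccnb3, was the testis with the lowest Ccnd1.

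Ccnd2, known from spermatogonia as they begin to differentiate, was at 9.96, 9.12 and 9.64 in KO testes. In KI testes it was at 9.50, 9.28 and 9.20, and in WT testes it ran from 9.03 over 9.31 to 9.54. KO 1 and KO 3 lay above the WT range and KO 2 inside it. The difference was 0.28 (95% interval -0.07 to 0.63, limma adjusted p = 0.316).

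Ccnd3, the third D-type cyclin, was at 8.04, 7.52 and 7.86 in KO testes, at 7.70, 7.40 and 7.39 in KI testes, and from 7.23 over 7.36 to 7.78 in WT testes. Again KO 1 and KO 3 lay above the WT range. The difference was 0.36 (95% interval 0.05 to 0.66, limma adjusted p = 0.144). Without KO 2, Ccnd2 was higher by 0.51 (limma adjusted p = 0.0421) and Ccnd3 by 0.50 (limma adjusted p = 0.0495), and 4 of 8 cyclins passed. In that setting 2323 of 22180 genes passed, or 10.5%. With any 1 array left out, the Ccnd2 difference ran from 0.086 to 0.51 (limma adjusted p 0.0421 to 0.801). That of Ccnd3 ran from 0.24 to 0.50 (limma adjusted p 0.0495 to 0.416). Neither passed when an array other than KO 2 was left out.

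The means of Sertoli cell, interstitial fibroblast, Leydig cell, peritubular myoid and endothelial genes were also highest in KO 1 and KO 3. The peritubular mean was 8.98 and 9.04 there, against 8.64 to 8.85 in WT testes. The endothelial mean was 8.05 and 8.15, against 7.56 to 7.91. The macrophage mean was highest in KO 1 (7.32), with KI 1 (7.29) above KO 3 (7.27). Of 6 peritubular genes 1 rose in KO testes, and none of 5 endothelial and 8 macrophage genes passed. KO 2 lay above the WT range for the Sertoli cell mean and inside it for the fibroblast mean. The mean of 10 Sertoli cell genes was 9.71, 9.55 and 9.78 in KO 1, KO 2 and KO 3, against 9.31 to 9.52 in WT testes. Its brightest genes, Cldn11 and Clu, differed by 0.16 and 0.01 and did not pass. The interstitial fibroblast mean was 9.99, 9.66 and 10.09 in the KO testes, against 9.34 to 9.70 in WT testes. Of the 10 Sertoli genes 2 rose, none fell and 8 did not pass, and of 7 fibroblast genes 2 rose and 5 did not pass. Undifferentiated spermatogonia genes had means of 7.12 to 7.23 in KO, 7.03 to 7.19 in KI and 6.88 to 7.02 in WT testes. Of these 10 genes 3 rose in KO testes and none in KI testes, and 1 rose in KO against the KO littermates alone. Differentiating spermatogonia genes went the other way, with means of 8.24 to 8.46 in KO, 8.55 to 8.62 in KI and 8.54 to 8.67 in WT testes. Of these 7 genes 2 fell in KO testes, none rose and 5 did not pass. The 2 were Prss50 (-0.78) and Esx1 (-0.35). Kit (-0.18), Stra8 (-0.17), Dmrtb1 (-0.28) and Sohlh2 (-0.31) did not pass, nor did Sohlh1, which went the other way (0.22). None of the 7 passed against the KO littermates alone (smallest limma adjusted p = 0.136). For 5 Leydig cell genes the means were 8.91 to 9.34 in KO, 7.69 to 8.56 in KI and 7.84 to 8.82 in WT testes, with 1 rising. WT 4 and WT 6, which had the highest Ccnd3 of the WT testes at 7.78 and 7.64, also had the highest WT means for Sertoli cells, at 9.52 and 9.51. The same held for the fibroblast mean (9.70 in each) and the endothelial mean (7.91 in each). The part of these cell types in the D-type cyclin values was not tested.

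Ccne1, an E-type cyclin of S phase entry, was at 7.07, 7.18 and 7.16 in KO testes, at 7.11, 7.23 and 7.42 in KI testes, and from 7.08 over 7.25 to 7.34 in WT testes. The groups overlapped, with KO 1 just under the WT range. Its difference between KO and WT was -0.09 (95% interval -0.26 to 0.08, limma adjusted p = 0.529). Against the KO littermates alone, all 3 KO testes were lower, by -0.12 (limma adjusted p = 0.555), as were Ccnb3, Ccnd1 and 7.13% of all genes without overlap.

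**Figure D3:**
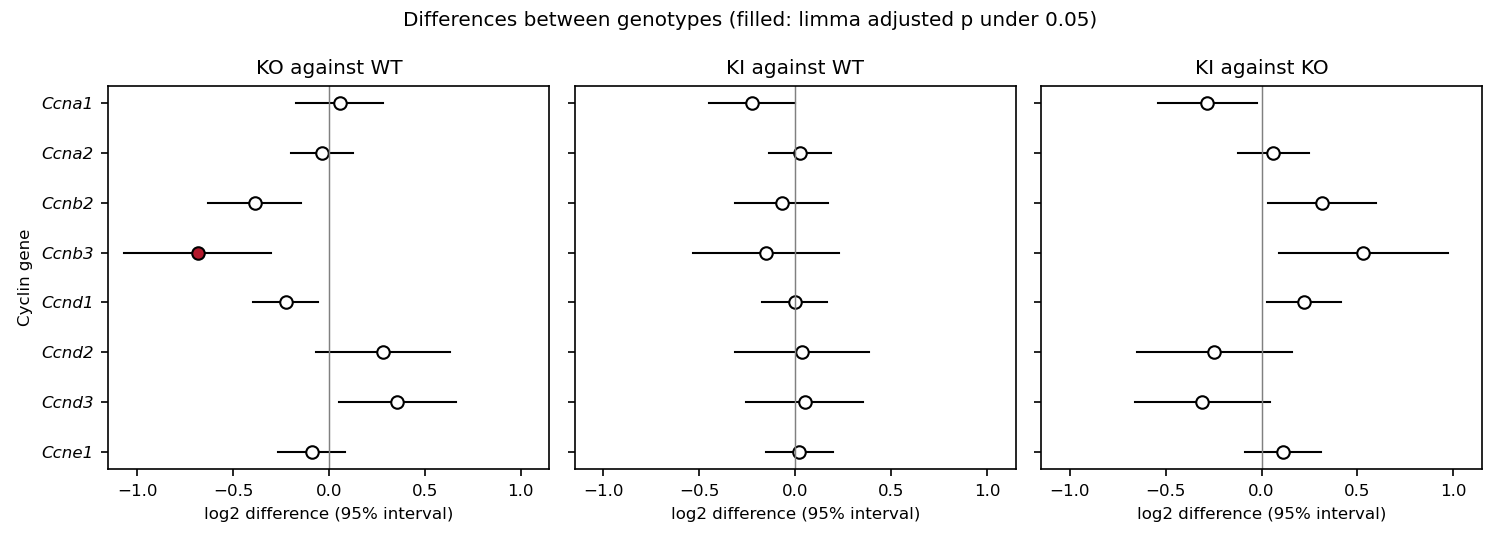
Log2 differences (points) with 95% intervals (lines) for the 8 measured cyclins in KO against WT, KI against WT and KI against KO, from limma with 12 arrays in 1 fit. Ccnb3 in KO against WT is the only filled point, at -0.69.

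No cyclin passed in KI testes, where 0% of all genes passed at an adjusted p under 0.05 (limma). At an unadjusted p under 0.05 there were 1 of 8 members (Ccna1) and 1163 of 22180 genes. The KI difference from WT was -0.15 for Ccnb3 (95% interval -0.54 to 0.23) and -0.07 for Ccnb2 (-0.31 to 0.17), and it was between -0.23 and 0.05 for the 8 members. Within the KI litters the Ccnb3 difference was -0.06, and no member or gene passed there either (0%).

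KI and KO testes were also set against each other. The differences of KI from KO were 0.53 for Ccnb3 (95% interval 0.09 to 0.97), 0.32 for Ccnb2 and 0.22 for Ccnd1, with a limma adjusted p of 0.212, 0.237 and 0.228. All 3 KI testes lay above all 3 KO testes for Ccnb2 and Ccnd1 but not for Ccnb3, where KI 1 lay under KO 2. The share of all genes without overlap there, in either direction, was the 22.1% given above for Ccna1. None of the 8 members and 0% of all genes passed, and 4 members and 3993 genes had an unadjusted p under 0.05. Without KO 2 the Ccnb3 difference was 0.80 and passed (limma adjusted p = 0.0343). When each mutant effect was taken within its own litters, the KI effect on Ccnb3 exceeded the KO effect by 0.73 (95% interval 0.10 to 1.36, limma adjusted p = 0.847), and 0% of genes passed. KO and KI effects against WT share the same 6 controls, and those effects are given side by side without a test of their likeness.

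No cyclin passed between the WT testes of KO litters and those of KI litters, where 0% of all genes passed (limma). There 0 of 8 members and 1174 genes had an unadjusted p under 0.05. The smallest limma adjusted p of a member was 0.891. Ccnd3, the cyclin with the largest difference there (0.27), averaged 7.58 ± 0.23 (SD, n = 3) in WT of KO litters and 7.32 ± 0.08 (SD, n = 3) in WT of KI litters. In the comparison of KO with its own littermates, 0 of 8 members and 0.00902% of genes passed.

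Genes that act with the cyclins were described from 6 lists that named 83 genes, of which 79 were measured. In KO testes 10 of these fell, 1 rose and 68 did not pass, beside 2.34% falling and 2.52% rising over all genes. Their median difference was -0.06. Against the KO littermates alone none of the 79 passed (smallest limma adjusted p = 0.155). None passed in KI testes against WT or KO, and their KI differences from WT lay between -0.20 and 0.23.

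**Figure D4:**
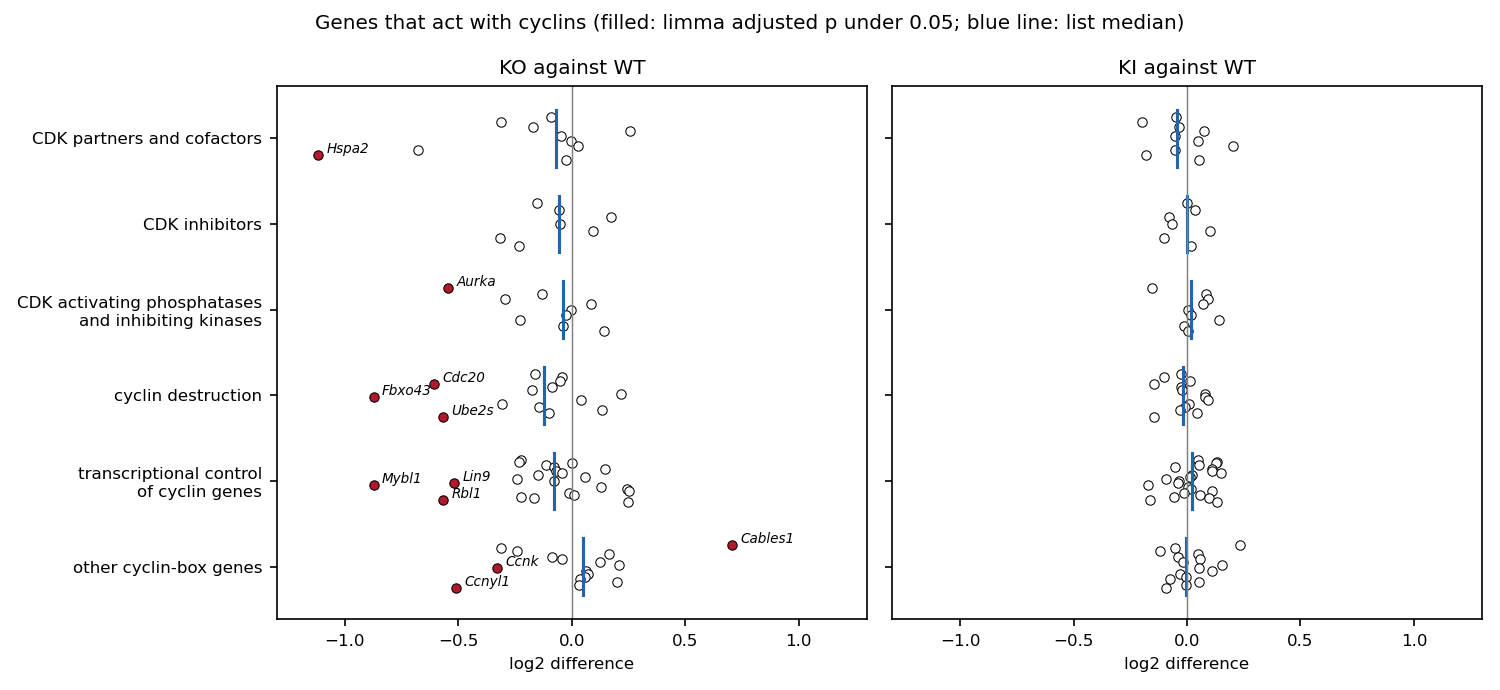
Log2 differences of the 79 measured genes that act with cyclins, by list, in KO against WT (left) and KI against WT (right), with 1 point per gene and a blue line at each list's median. The filled points are the 11 genes that passed in KO testes, 10 of them to the left of 0, from -1.12 (Hspa2) to 0.70 (Cables1).

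Genes of cyclin destruction gave 3 of the decreases, with 11 of 14 not passing. Cdc20, which activates the anaphase-promoting complex that destroys B-type cyclins, was at 8.80 ± 0.25 in KO testes (SD, n = 3), against 9.40 ± 0.23 in WT testes (SD, n = 6), a difference of -0.61 (limma adjusted p = 0.0367). Ube2s, the enzyme that extends ubiquitin chains for the same complex, fell by 0.57 on the log2 scale (limma adjusted p = 0.031). Fbxo43, an inhibitor of that complex known from meiosis, was at 5.84 ± 0.36 in KO testes (SD, n = 3), against 6.71 ± 0.39 in WT testes (SD, n = 6) (difference -0.87, limma adjusted p = 0.0395). These 3 genes thus had lower signals in the same testes. Among the 11 that did not pass were Fzr1 (-0.14), Ube2c (-0.10) and Fbxo5 (0.04).

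Among 23 genes of transcriptional control of cyclins, 3 fell and 20 did not pass. Mybl1, which encodes the MYB family activator of spermatocytes, was at 8.05 ± 0.44 in KO testes (SD, n = 3), against 8.92 ± 0.23 in WT testes (SD, n = 6), a difference of -0.87 (limma adjusted p = 0.0317). It is also in the pachytene list. Rbl1, an RB-family repressor (-0.57, limma adjusted p = 0.0319), and Lin9, which encodes a subunit of the complex known to read CHR words (-0.52, limma adjusted p = 0.0417), fell as well.

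Of 10 CDK partners and cofactors, 1 fell and 9 did not pass. It was Hspa2, a chaperone needed for CDK1 activity in spermatocytes, which was at 8.77 ± 0.53 in KO testes (SD, n = 3), against 9.89 ± 0.51 in WT testes (SD, n = 6) (difference -1.12, limma adjusted p = 0.0461). Cks2, a small CDK-binding protein required in meiosis, differed by -0.68 and did not pass (limma adjusted p = 0.0598). Among 9 activating phosphatases and inhibiting kinases, the mitotic kinase gene Aurka fell (-0.55, limma adjusted p = 0.0353) and 8 did not pass, with Wee1, which restrains CDK1, at -0.04. None of the 7 CDK inhibitors passed, with Cdkn2d at -0.23 and Cdkn2b at 0.09.

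Of 16 other genes of this kind, most with a cyclin box, Ccnyl1, a cyclin Y relative known from mouse spermatogenesis, fell (-0.51, limma adjusted p = 0.0379). Ccnk, a partner of transcriptional CDKs, fell too (-0.33, limma adjusted p = 0.0395). Cables1, which encodes a CDK-binding adaptor, rose (0.70, limma adjusted p = 0.0384), and 13 did not pass. Of 16 mitotic proliferation genes 8 fell, beside 2.34% of all genes, Mki67 and Pcna by 0.29 and 0.25 on the log2 scale. Against the KO littermates alone none of the 16 passed (smallest limma adjusted p = 0.155). Their mean was 8.96 to 9.11 in KO, 9.24 to 9.26 in KI and 9.23 to 9.35 in WT testes. The KO means thus lay below all others, while Ccna2 of the same testes lay inside the WT range.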

How the data were processed

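RNA of 12 whole testes was measured on 12 arrays. The deposited values are log2 expression levels per transcript cluster (41345 clusters, 0.915 to 13.9), 1 column per array. Per the submitters' processing notes the tools were RMA, Expression Console and Partek 6.6, with no role stated for each. Background correction and filters are not given in these sources. If RMA was run over all arrays together, differences are relative to the other genes of an array. The platform annotation gave 1 gene symbol to 23521 clusters, several to 1814 and none to 16010. A gene took its cluster of highest mean.

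Differences were tested with limma 3.58.1 in R 4.3.3 (lmFit and eBayes, two-sided, Benjamini-Hochberg over 22180 genes at 0.05), on 3 genotype groups with 12 arrays in 1 fit, or on the 4 label groups for comparisons by litter. Single genes were also tested by exact two-sided permutation of arrays. Confidence intervals are 95%, and the median gene's interval reached 0.22 to either side for either mutant against WT. Precision is limited by the number of arrays. The fit was tested on simulated data in which each gene varied independently of the others. That test does not cover variation shared by many genes of an array. Figures were drawn with matplotlib 3.10.9 in Python 3.11.15.

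The members and lists were chosen with earlier results of these data known. All 10 members are named where measured. From each list the genes past the threshold were named, and up to 2 of highest level, and for a cyclin past the threshold the 3 genes of highest correlation. Other scalings, filters, priors, weights, controls and single arrays left out were tried. The labels call the samples biological replicates and do not say whether each testis came from a different mouse. If testes shared a mouse, the p-values would measure a partly technical spread.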

Additional observations from a re-analysis of the deposited data

How the results depend on the processing

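The lower Ccnb3 level of KO against WT kept its direction in all 23 alternatives, while its call did not hold in many. With 1 array left out the log2 difference ran from -0.95 to -0.49, and the limma adjusted p from 0.00533 to 0.203. The call was also lost with all transcript clusters tested (-0.69, adjusted p = 0.0936), array quality weights (-0.63, 0.0636), only the arrays of the groups compared (-0.69, 0.0734), only WT of KO litters (-0.78, 0.285) and only WT of KI litters (-0.59, 0.132) as controls. The cause was not tested, apart from the smaller number of arrays and larger number of clusters that some of these have by construction. It held with median centring, new quantile normalization, the mean of a gene's clusters, an intensity trend with robust prior, and only genes above the median level. The number of cyclins called in KO against WT was 0 to 4 with 1 array left out (4 without KO 2). It was 3 of the 7 cyclins left with only genes above the median level (Ccnb2, Ccnb3, Ccnd1) and 2 of 8 with the trend. It was 0 with all clusters, with weights, with only the arrays compared, and with either litter alone. The genes called there numbered 2 to 2323 of 22180 with 1 array left out and 2459 of 11090 (22.2%) above the median level. They were 8 of 41345 clusters (0.0193%), 2048 of 22180 (9.23%) with the trend, 30 (0.135%) with only the arrays compared and 0 with WT of KO litters alone. For KI against KO, 0 to 721 genes and 0 to 1 cyclins (Ccnb3, without KO 2) were called with 1 array left out, with 57 genes above the median level and 5 with the trend. For KO against its littermates, 0 to 605 genes and 0 to 1 cyclins (Ccnb3 at -1.05, adjusted p = 0.0187, without KO 2) were called with 1 array left out, with 4 genes after quantile normalization, 32 above the median level and 41 with the trend. For WT of KO litters against WT of KI litters, 0 to 50 genes were called with 1 array left out and 1 with the trend. The replicate number was also used as a block. WT testes of KO litters share their numbers with no other array, so they add nothing to the mutant differences from WT there. The KO difference then rests on WT of KI litters alone, without the KO littermates, and for Ccnb3 it was -0.59 in both settings. With the block the adjusted p of Ccnb3 was 0.102, and 2 cyclins passed in KO against these WT testes (Ccnb2 and Ccnd3). In KI against KO 247 genes passed with the block. The labels do not say that the replicate number marks a pairing. Of 9 same-numbered pairs of arrays 3 had deviations correlated above 0.1 (range -0.03 to 0.16). Pairs with different numbers were not compared, so these values cannot decide it. Signs turned only for small differences that passed in no setting. In KI against WT these were Ccnd1 (0.0072 with median centring, 0.015 with the replicate block and with WT of KI litters alone) and, with WT of KO litters alone, Ccna2 (-0.012), Ccnd2 (-0.0062), Ccnd3 (-0.085) and Ccne1 (-0.0097). In KO against WT it was Ccna2 (0.0039 with the block and with WT of KI litters alone). With 1 array left out, the KI difference from WT ran from -0.025 to 0.11 for Ccna2, -0.12 to 6.8e-05 for Ccnb2, -0.039 to 0.030 for Ccnd1, -0.052 to 0.098 for Ccnd2, -0.054 to 0.11 for Ccnd3 and -0.061 to 0.093 for Ccne1. From its littermates it ran from -0.16 to 0.069 for Ccnb3, -0.021 to 0.049 for Ccnd1, -0.012 to 0.14 for Ccnd2 and -0.029 to 0.12 for Ccne1. WT of KO litters differed from WT of KI litters by -0.19 to 0.021 for Ccna1 and -0.027 to 0.23 for Ccnd2. The KI effect minus the KO effect ran from -0.39 to 0.027 for Ccnd2 and -0.19 to 0.086 for Ccnd3. Signal near background limits Ccna1, and every group of mutants or of WT testes from 1 kind of litter had only 3 arrays.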

Other observations

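The cyclins also differed in how KO 2 compared with KO 1 and KO 3. KO 2 lay inside the WT range for Ccnb2, Ccnb3, Ccnd2 and Ccnd3, at 9.02, 7.73, 9.12 and 7.52, while KO 1 and KO 3 lay outside it for all 4. For Ccnd1 the order was different, with KO 2 at 8.12, against 8.45 in KO 1 and 8.38 in KO 3. Sox3 was between 6.57 and 6.65 in all 3 KO testes. This description follows from the values of 3 testes and was not tested.

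Of the cyclin promoters not printed above, the RefSeq promoter of Ccnb1 held 2 CCAAT words, at positions -99 and -67, 1 MYB word at position 8, and 1 E2F word at -102 that overlaps the first CCAAT. Of the 2 promoters of Ccnd3, 1 held 1 MYB word and 1 CCAAT word, and the other held none of the searched words, as did that of Ccne1.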
